A study of Homo sapiens with 16 samples.

Results

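The comparison described here sets OVCAR3 cells that had received 1,25-dihydroxyvitamin D3 (1,25(OH)2D3), vitamin D's active hormone, for 8 h against cells that had received its solvent, ethanol. OVCAR3 is an established human ovarian carcinoma line, so both groups share 1 tumour genotype. The comparison uses 6 of the 16 arrays of the study: 3 Affymetrix U133A arrays of the 8 h group and 3 of the vehicle group (labelled 0 h), chosen by their labels and not by any measured value. The labelled dose is 0.1 pM, a unit that the arrays cannot check. Hormone additions were staggered so that every dish was collected at 1 time with equal ethanol exposure, and the U133A samples came from 3 separate experiments. The other 6 U133A arrays, 3 at 24 h and 3 at 72 h of the same treatment, entered the model only to estimate the spread and to describe the later course. A further 4 arrays, of the older U95 type, held 1 sample for each time and gave an unreplicated second measurement of the same contrast.

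1,25(OH)2D3 enters cells and binds the vitamin D receptor, VDR, a nuclear receptor that pairs with a retinoid X receptor such as RXRA. The pair binds DNA at vitamin D response elements, typically a direct repeat of a 6-base motif with a short spacer, and recruits coactivators that raise transcription. The response usually includes CYP24A1, whose product inactivates the hormone, and in epithelial cells it extends to genes of growth arrest, innate defence and proteolysis.

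Markers of epithelial ovarian carcinoma were expressed in both groups. All 14 of 14 carcinoma epithelium markers on the array (among them EPCAM, PAX8, MUC16 and the keratins KRT7, KRT8, KRT18 and KRT19) lay above the signal filter, and their summed signal was 48349 to 54924 on the vehicle arrays and 50605 to 55642 at 8 h. Of the 7 fibroblast markers, 3 lay above the filter (COL1A1, DCN and THY1), with summed signals of 1227 to 1365 and 1270 to 1428. None of the 5 leukocyte or 5 endothelial markers measured lay above it; the summed signals were 259 to 470 and 287 to 488 for leukocyte markers, and 211 to 403 and 281 to 317 for endothelial markers. WT1 was the 1 marker in these lists that passed the test at 8 h. The U133A arrays had median signals of 168 to 196 and correlated with each other at 0.958 to 0.976 on the log2 scale, and no array stood apart.

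At 8 h, 51 of 7178 genes were higher than in vehicle (0.711% of genes tested) and 4 were lower (0.0557%), at an adjusted p under 0.05 (limma, Benjamini-Hochberg). The signal is the MAS5 value of a probe set in arbitrary units, and changes are differences of log2(signal + 15.833), 8 h minus vehicle, which understate the change of genes with low signal. Of the 51 rises, 17 were at least 2-fold, 26 were 1.5-fold to under 2-fold and 8 were smaller. 2 of the 4 falls were at least 2-fold, those of RGCC and IRF8. In all 55 genes the 3 arrays at 8 h lay beyond the 3 vehicle arrays; the same held for 6.51% of all genes tested in the upward and 6.95% in the downward direction. The median change over all genes tested was -0.004, against 0.88 over the 51 genes that rose. The 55 genes were picked by p on these same values, so this median and the separation are no added support. RNA was extracted from whole cultures, so a change in the RNA of each cell and a change in the number of cells holding it cannot be told apart. At an unadjusted p under 0.05, 266 genes were higher and 192 lower.

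**Figure D1:**
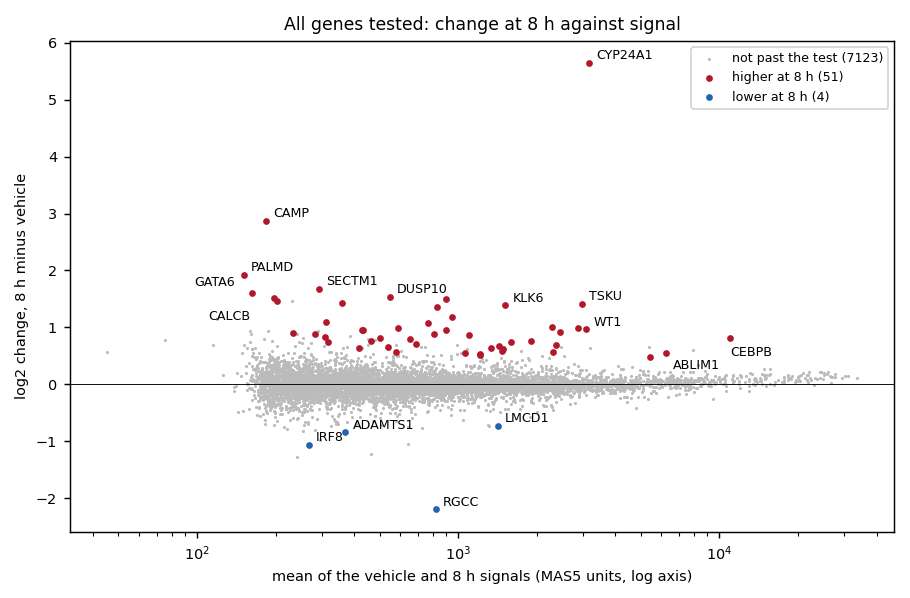
Log2 change at 8 h against vehicle (y axis) over the mean of the vehicle and 8 h signals (x axis, MAS5 units, log scale) for the 7178 genes tested, 1 point per gene. The 51 red points passed the test as higher and the 4 blue points as lower; CYP24A1 stands apart at 5.65 and RGCC at -2.20.

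CYP24A1, the mitochondrial hydroxylase that begins the breakdown of 1,25(OH)2D3, showed the largest change of all genes tested. Its signal was 56.4, 84.1 and 247 on the vehicle arrays and 6045, 6615 and 5895 at 8 h. The groups lay far apart although vehicle replicate 3 was clearly above the other two vehicle arrays. The log2 change was 5.65 (95% interval 4.94 to 6.35, adjusted p 1.6e-07), a 50.0-fold difference on the scale used. The receptor itself did not pass the test. VDR had signals of 467, 348 and 428 in vehicle and 529, 405 and 504 at 8 h, with overlapping groups and a change of 0.21 (interval -0.10 to 0.51, adjusted p 0.98). Its 4 probe sets disagreed in sign, with 2 above and 2 below 0. RXRA changed by 0.12 (interval -0.17 to 0.41). Among the 12 tested genes of vitamin D metabolism, the receptor complex and its coregulators, CYP24A1 was the only 1 past the test, and the median change was 0.06. CARM1, a methyltransferase coactivator, had the next lowest p of that list, with a change of -0.60 and an adjusted p of 0.13. CREBBP, an acetyltransferase coactivator, changed by -0.22 (adjusted p 0.93).

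The promoter sequences of some of the strongest responders are shown because the receptor acts by binding DNA. They are the 250 bases before the RefSeq start site on GRCh38.p14, written 5′ to 3′ on the gene's strand, which is the plus strand for all 4. Capitals mark a match to a 6-base receptor motif (AGGTCA or AGTTCA or GGGTCA or GGTTCA or AGGTGA or AGTTGA or GGGTGA or GGTTGA) on either strand. CAMP lies at chr3:48223245-48223494, PALMD at chr1:99645863-99646112, GATA6 at chr18:22169339-22169588 and RGCC, the gene with the largest fall, at chr13:41457300-41457549.
CAMP: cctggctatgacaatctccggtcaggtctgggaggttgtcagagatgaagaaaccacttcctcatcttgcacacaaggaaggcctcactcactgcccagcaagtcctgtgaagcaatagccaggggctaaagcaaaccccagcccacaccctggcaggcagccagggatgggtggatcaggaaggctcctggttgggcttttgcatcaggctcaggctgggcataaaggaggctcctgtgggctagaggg
PALMD: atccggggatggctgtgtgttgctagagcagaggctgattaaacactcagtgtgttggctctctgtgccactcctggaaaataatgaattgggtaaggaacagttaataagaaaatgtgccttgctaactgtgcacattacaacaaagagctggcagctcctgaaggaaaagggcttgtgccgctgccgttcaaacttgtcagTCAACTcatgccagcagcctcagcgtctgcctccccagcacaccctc
GATA6: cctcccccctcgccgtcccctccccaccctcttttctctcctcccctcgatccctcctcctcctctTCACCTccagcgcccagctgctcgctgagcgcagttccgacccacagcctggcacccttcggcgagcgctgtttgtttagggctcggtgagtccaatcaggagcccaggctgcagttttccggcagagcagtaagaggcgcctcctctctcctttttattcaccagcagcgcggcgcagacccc
RGCC: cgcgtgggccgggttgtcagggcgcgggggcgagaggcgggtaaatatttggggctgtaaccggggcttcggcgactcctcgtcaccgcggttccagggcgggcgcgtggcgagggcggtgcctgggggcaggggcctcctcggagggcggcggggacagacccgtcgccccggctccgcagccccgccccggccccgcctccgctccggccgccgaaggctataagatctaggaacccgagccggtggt
PALMD and GATA6 each held 1 match, in both cases on the minus strand, and CAMP and RGCC held 0. SECTM1 also held 1 match, but its start in the promoter table lies inside the annotated gene. Its sequence is therefore not shown, though SECTM1 stays in the counts that follow. Over the set, 46 of the 55 genes past the test matched a sequence in the promoter table, and 16 of the 46 (34.8%) held at least 1 match. The share was 48.9% among the 6003 tested genes with a promoter sequence and 55.6% among all 27305 promoters of the table, in windows of the same length. The full direct repeat with a spacer of 3 bases (DR3) occurred in 0 of the 46, in 0.133% of the tested genes and in 0.187% of all promoters. The windows are short and end at 250 bases, and these counts describe letters in them, not binding. Sequence farther from the start sites was not searched, so the counts do not tell whether a gene has a response element. CYP24A1, GADD45A and CALCB were among the 9 genes with no promoter sequence used here, the others being ADAMTS1, ADGRE5, MN1, RAB11FIP1, TRIM8 and ZMIZ1.

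Several genes long known as vitamin D targets rose. Of the 17 tested members of the target list, 8 rose, 0 fell and 9 did not pass, with a median change of 0.65 against -0.004 over all genes tested. The list was written with earlier results of these arrays known, so its direction is no independent evidence. CYP24A1 and CAMP, among those that rose, also had mean vehicle signals under the filter and were tested only through treated arrays. Over all genes tested, 0.711% rose. CAMP, the precursor of the antimicrobial peptide LL-37, had signals of 26.7, 32.7 and 33.2 in vehicle and 407, 215 and 390 at 8 h. All vehicle values were low and close together, and 8 h replicate 2 was the lowest of the treated arrays. CAMP rose by 2.87 (interval 2.45 to 3.29, adjusted p 8.5e-07), or 7.32-fold. DUSP10, a phosphatase that inactivates the stress kinases p38 and JNK, had signals of 229, 258 and 337 in vehicle and 821, 744 and 898 at 8 h. The groups were well separated, and DUSP10 rose by 1.54 (interval 1.26 to 1.82, adjusted p 9.7e-06). GADD45A, a growth arrest gene of the GADD45 family to which the study's U95 arrays had pointed, had signals of 571, 403 and 432 in vehicle and 1313, 1236 and 1447 at 8 h. Every treated value of GADD45A was above every vehicle value, and it rose by 1.49 (interval 1.17 to 1.81, adjusted p 3.5e-05). KLK6, a secreted trypsin-like protease, had signals of 798, 907 and 782 in vehicle and 2381, 2009 and 2209 at 8 h, again without overlap. KLK6 rose by 1.39 (interval 1.10 to 1.68, adjusted p 3.1e-05).

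The remaining rises in the target list were smaller and less firmly placed. G0S2, an inhibitor of the lipase that opens lipid droplets, rose by 0.88 (adjusted p 0.0078), from 194 ± 6.99 to 370 ± 30.4 (mean ± SD of the signal, n = 3 each). Without 8 h replicate 1 its adjusted p was 0.054. NRIP1, a nuclear receptor corepressor, rose by 0.86 (adjusted p 0.030). It lost the call without any 1 of the 6 arrays compared, with adjusted p values from 0.053 without 8 h replicate 2 to 0.186 without 8 h replicate 3. SERPINB1, an intracellular inhibitor of neutrophil proteases, rose by 0.65 (adjusted p 0.014). Its call was lost without vehicle replicate 1 (0.113), vehicle replicate 3 (0.057), 8 h replicate 1 (0.054) or 8 h replicate 2 (0.097). TRPV6, the epithelial calcium channel, did not pass, with signals of 93.9, 115 and 19.4 in vehicle and 185, 136 and 167 at 8 h. The groups did not overlap, but vehicle replicate 3 was far below the others, and the change of 1.15 had an interval of 0.34 to 1.97 (adjusted p 0.34). TRPV6 was also the member of the calcium transport list with the largest change; 0 of its 4 tested members passed, and the plasma membrane pumps ATP2B1, ATP2B2 and ATP2B4 changed by 0.02, -0.03 and 0.19. The target list also held IGFBP3, CDKN1B, TXNIP and CA2, which changed by 0.23, -0.09, -0.15 and 0.21 and did not pass.

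**Figure D2:**
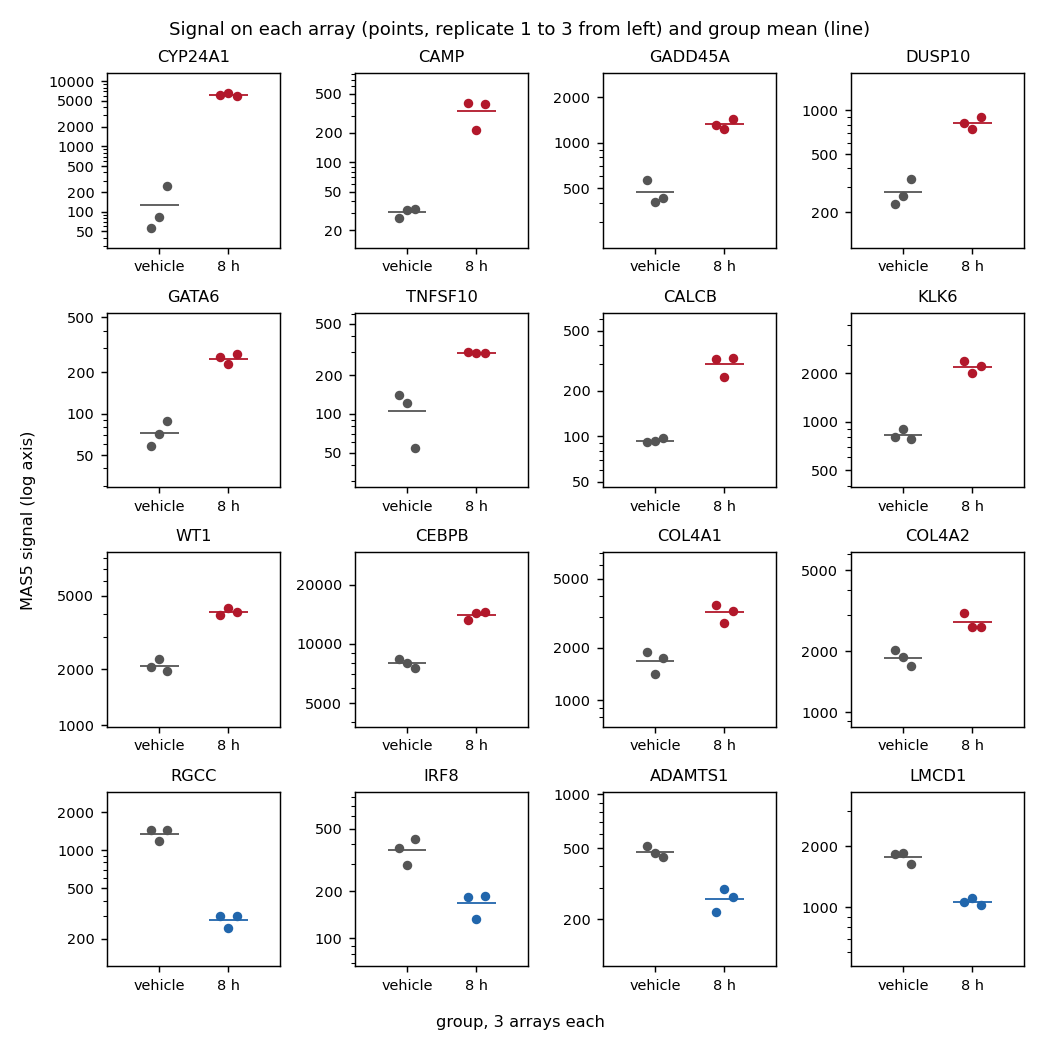
Signal on each of the 3 vehicle arrays (grey points) and 3 arrays at 8 h (red points where the gene rose, blue where it fell) for 16 genes; lines are group means and the y axes are logarithmic, in MAS5 units. In all 16 panels the groups do not overlap; CYP24A1 runs from 56.4 to 247 in vehicle and from 5895 to 6615 at 8 h, and RGCC from 1179 to 1446 and from 242 to 304.

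Several transcription factors and coregulators rose. GATA6, a zinc finger factor of endoderm and heart development, had signals of 58.5, 71.7 and 88.2 in vehicle and 255, 228 and 269 at 8 h. All vehicle values lay under 100 MAS5 units, and GATA6 rose by 1.60 (interval 1.20 to 2.00, adjusted p 0.00019). WT1, a zinc finger factor that marks serous ovarian carcinoma, had signals of 2064, 2264 and 1958 in vehicle and 3922, 4312 and 4072 at 8 h. The spread within groups was small, and WT1 rose by 0.97 (interval 0.79 to 1.14, adjusted p 9.7e-06), with a second probe set at 0.82. CEBPB, a leucine zipper factor, had signals of 8379, 8022 and 7582 in vehicle and 13253, 14292 and 14605 at 8 h. CEBPB was strongly expressed in both groups and rose by 0.81 (interval 0.61 to 1.02, adjusted p 0.00019). It was the 1 of 4 tested C/EBP factors past the test; CEBPD changed by 0.51 (adjusted p 0.34), CEBPG by 0.11 and DDIT3 by 0.01. LBH, a transcription cofactor of limb and heart development, had signals of 1813, 1362 and 1380 in vehicle and 3426, 2674 and 3062 at 8 h, without overlap. LBH rose by 1.01 (interval 0.74 to 1.28, adjusted p 0.00039). ETS2, a factor at the end of the RAS and MAP kinase pathway, rose by 0.95 (adjusted p 0.0027), from 285 ± 4.66 to 568 ± 76.1.

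Further rises among nuclear regulators were under 2-fold and each depended on single arrays. ELF3, an epithelial ETS factor, rose by 0.54 (adjusted p 0.0080; 0.069 without vehicle replicate 1 and 0.053 without 8 h replicate 2). MN1, a transcriptional coregulator, rose by 0.82 (adjusted p 0.0078; 0.056 without vehicle replicate 3). DLX2, a homeobox factor, rose by 0.80 (adjusted p 0.012; 0.086 without 8 h replicate 1, 0.061 without 8 h replicate 3 and 0.076 without vehicle replicate 3). These 3 genes had separate groups on the arrays, as had all 55 genes past the test, so the separation adds no support to them. JUNB, an AP-1 subunit, rose by 0.71 (adjusted p 0.013; 0.053 to 0.086 without replicate 1 or 3 of vehicle or replicate 1 or 2 of the 8 h group). ZMIZ1, a coactivator related to SUMO ligases, rose by 0.68 (adjusted p 0.012; 0.063 to 0.083 without 8 h replicate 1 or 3 or vehicle replicate 3). TRIM8, a ubiquitin ligase that also acts in the nucleus, rose by 0.76 (adjusted p 0.032; 0.085 to 0.219 when any of the 4 arrays named for JUNB was left out). In the list of developmental and lineage factors, 3 of 17 tested members rose (GATA6, WT1 and ELF3), 1 fell (IRF8) and 13 did not pass. The median was 0.01. Of all genes tested, 0.711% rose and 0.0557% fell. GATA6 had a mean vehicle signal under the filter and was tested only through treated arrays. In the list of immediate early and AP-1 factors, JUNB was the 1 of 19 past the test and the median was 0.10. FOS lay under the signal filter and was not tested in the main fit. With no filter on low signal, FOS passed as higher beside JUNB. The JUNB partners JUN and FOSL2 changed by -0.36 (adjusted p 0.36) and 0.54 (adjusted p 0.53).

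Several genes of intracellular signalling rose. RAPGEF3, which encodes the cyclic AMP sensor EPAC1, had signals of 260, 236 and 97.2 in vehicle and 627, 488 and 454 at 8 h. Vehicle replicate 3 was low, the groups did not overlap, and RAPGEF3 rose by 1.43 (interval 0.86 to 1.99, adjusted p 0.013; 0.097 without 8 h replicate 1). The other 16 tested genes of the cyclic AMP and Rap list did not pass, with a median of 0.05 over the list, and RAP1GAP, which switches Rap1 off, changed by 0.47 (adjusted p 0.096). KCTD12, an auxiliary subunit of GABA-B receptors, had signals of 379, 424 and 587 in vehicle and 1060, 1131 and 1402 at 8 h. Replicate 3 was the highest array of both groups, the groups were separate, and KCTD12 rose by 1.35 (interval 1.02 to 1.69, adjusted p 0.00015). HPCAL1, a neuronal calcium sensor family member, had signals of 593, 609 and 529 in vehicle and 1376, 1317 and 1273 at 8 h. HPCAL1 varied little within groups and rose by 1.18 (interval 0.86 to 1.49, adjusted p 0.00038). DOK5, a docking protein of receptor tyrosine kinases, had signals of 548, 451 and 464 in vehicle and 1122, 1042 and 963 at 8 h, without overlap. DOK5 rose by 1.07 (interval 0.82 to 1.32, adjusted p 0.00010). In RefSeq (GRCh38.p14), DOK5 lies 301.6 kb from CYP24A1 on chromosome 20 with PFDN4 between them. PFDN4, a prefoldin subunit, had mean signals of 2465 and 2662 and changed by 0.11, which did not pass (adjusted p 0.999). Its other probe sets changed by 0.49 (mean signals of 96.7 and 130) and 0.06.

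Other signalling genes rose by less. GUCY1B1, a subunit of the nitric oxide receptor, rose by 0.69 (adjusted p 0.0032), from 1811 ± 162 to 2935 ± 325. ABL1, a tyrosine kinase, rose by 0.58 (adjusted p 0.0032), from 1168 ± 15.9 to 1762 ± 127. Both kept the call in every fit that left out 1 array. PEA15, a death effector domain protein that binds ERK, rose by 0.48 (adjusted p 0.0078; 0.053 without vehicle replicate 3), the smallest rise past the test. TRAF4, an adaptor of the TRAF family, rose by 0.55 (adjusted p 0.021; 0.054 to 0.143 without any 1 array at 8 h or vehicle replicate 2 or 3). WSB1, a subunit of a ubiquitin ligase, rose by 0.63 (adjusted p 0.021; 0.060 to 0.145 without any 1 vehicle array or 8 h replicate 2 or 3). All 5 probe sets of WSB1 were above 0. DUSP10 was the 1 of 8 tested MAP kinase phosphatases past the test, and the median of that list was 0.01; DUSP5 changed by 0.34 (adjusted p 0.98).

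Genes for secreted and surface proteins made up another part of the rises. CALCB, which encodes the vasodilator peptide beta-CGRP, had signals of 91.8, 92.5 and 96.5 in vehicle and 324, 245 and 329 at 8 h. The vehicle arrays were nearly equal, and CALCB rose by 1.51 (interval 1.08 to 1.95, adjusted p 0.00069). Of the 3 tested calcitonin family members, the other two, ADM and RAMP3, changed by 0.47 (adjusted p 0.42) and -0.20. TNFSF10, the death receptor ligand TRAIL, had signals of 141, 122 and 53.9 in vehicle and 304, 297 and 294 at 8 h. The treated arrays were nearly equal and vehicle replicate 3 was the lowest; TNFSF10 rose by 1.46 (interval 0.93 to 1.98, adjusted p 0.0063), and its 3 probe sets all lay above 0. It was the 1 of 11 tested genes of the death receptor list past the test, and the median of the list was 0.05. FAS, a death receptor, changed by -0.56 (adjusted p 0.41), the TRAIL receptor TNFRSF10B by 0.02 and CASP8 by -0.21. SECTM1, a membrane and secreted ligand of the lymphocyte protein CD7, had signals of 65.2, 160 and 189 in vehicle and 545, 407 and 388 at 8 h. Vehicle replicate 1 was the lowest and 8 h replicate 1 the highest array, and SECTM1 rose by 1.68 (interval 1.06 to 2.30, adjusted p 0.0077; 0.056 without 8 h replicate 1). CAMP and SECTM1 were the 2 of 8 tested genes of the innate defence list that rose, and the median of that list was 0.01. CALCB, TNFSF10, CAMP and SECTM1 all had mean vehicle signals under the filter, so they were tested only through treated arrays. Over all genes tested, 0.711% rose. SLPI, an antiprotease of mucosal fluids, changed by 0.21 (adjusted p 0.64), and S100A8, a subunit of calprotectin, by -0.46 (adjusted p 0.87).

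TSKU, a secreted leucine-rich repeat protein, had signals of 1632, 1535 and 1662 in vehicle and 5015, 3596 and 4405 at 8 h. The vehicle arrays were close together, and TSKU rose by 1.41 (interval 1.15 to 1.67, adjusted p 9.7e-06). RARRES1, first found as a retinoid-responsive membrane gene, had signals of 180, 163 and 242 in vehicle and 401, 414 and 466 at 8 h. RARRES1 rose by 1.09 (interval 0.74 to 1.43, adjusted p 0.0019), with its other two probe sets at 0.84 and 1.49. ADGRE5, the adhesion receptor CD97, rose by 0.90 (adjusted p 0.015; 0.108 without vehicle replicate 1, 0.097 without 8 h replicate 2 and 0.084 without 8 h replicate 3). IL12A, the p35 chain of interleukin 12, rose by 0.74 (adjusted p 0.017; 0.063 to 0.135 without any 1 vehicle array or 8 h replicate 1 or 2). CHRDL1, a secreted antagonist of bone morphogenetic proteins, rose by 0.56 (adjusted p 0.0078; 0.052 without vehicle replicate 2 and 0.053 without 8 h replicate 2). RARRES1 and TSKU kept the call in every fit that left out 1 array, while ADGRE5, IL12A and CHRDL1 each lost it in at least 2 of those fits. In the list of kallikreins and serpins, 2 of 13 tested members rose (KLK6 and SERPINB1), against 0.711% of all genes tested. The median of the list was 0.29. SERPINB7 had signals of 52.9, 65.4 and 30.8 in vehicle and 166, 70.0 and 67.2 at 8 h, with 1 treated array far above the other two, and a change of 0.77 that did not pass (adjusted p 0.43). KLK7, a protease of the same chromosome 19 family as KLK6, changed by 0.54 (adjusted p 0.31).

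The type IV collagen genes COL4A1 and COL4A2, whose chains form the network of basement membranes, rose together. COL4A1 had signals of 1903, 1407 and 1753 in vehicle and 3552, 2790 and 3274 at 8 h, and replicate 2 was the lowest array of both groups. COL4A1 rose by 0.92 (interval 0.64 to 1.20, adjusted p 0.0014), with its second probe set at 0.75. COL4A2 had signals of 2013, 1861 and 1696 in vehicle and 3061, 2628 and 2616 at 8 h, also without overlap. COL4A2 rose by 0.57 (interval 0.36 to 0.79, adjusted p 0.0082; 0.065 without 8 h replicate 1 and 0.068 without vehicle replicate 3), with its second probe set at 0.51. The 2 genes are transcribed away from each other on chromosome 13 from start sites with 126 bases between them in RefSeq (GRCh38.p14), and this shared segment, chr13:110307158-110307283, is shown on the plus strand, the strand of COL4A2.
COL4A1-COL4A2 shared: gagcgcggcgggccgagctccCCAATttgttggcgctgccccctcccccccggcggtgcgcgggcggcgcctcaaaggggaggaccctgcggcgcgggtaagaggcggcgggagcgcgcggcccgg
Capitals mark its 1 CCAAT motif, searched on both strands; 21.9% of all promoters hold that motif within 126 bases of the start. In the list of matrix, protease and adhesion genes, COL4A1 and COL4A2 were the 2 of 21 tested members that rose. ADAMTS1 was the 1 that fell, and the median was -0.03. The shares over all genes tested were 0.711% higher and 0.0557% lower. LAMB3, a laminin chain of epithelial basement membranes, had signals of 713, 716 and 847 in vehicle and 1141, 1231 and 1315 at 8 h. Its groups were separate, but the change of 0.69 (interval 0.34 to 1.03) did not pass (adjusted p 0.075; 0.0076 on the 6 arrays alone, 0.012 with array weights, 0.027 without 24 h replicate 2 and 0.024 without 72 h replicate 2). CDH1, the adhesion molecule E-cadherin, changed by 0.25 (adjusted p 0.61).

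Genes of metabolism, transport and the cytoskeleton completed the rises. PALMD, a protein of the paralemmin family, had signals of 59.2, 57.0 and 44.6 in vehicle and 269, 216 and 259 at 8 h. All vehicle values were low, and PALMD rose by 1.93 (interval 1.49 to 2.36, adjusted p 6.9e-05), the third largest rise past the test. GNE, the enzyme that starts sialic acid synthesis, had signals of 334, 406 and 431 in vehicle and 818, 794 and 744 at 8 h, and rose by 0.99 (interval 0.72 to 1.25, adjusted p 0.00041). GLDC, the decarboxylase of the glycine cleavage system, had signals of 2267, 1801 and 1729 in vehicle and 4196, 3321 and 3944 at 8 h. GLDC rose by 0.98 (interval 0.74 to 1.22, adjusted p 0.00015). These 3 genes kept the call whichever single array was left out, and so did FUCA1, SLC1A3, EFL1, MCUR1 and ABLIM1. FUCA1, a lysosomal fucosidase, rose by 0.96 (adjusted p 0.00056), from 288 ± 21.7 to 576 ± 35.6. SLC1A3, a glutamate and aspartate transporter, rose by 0.96 (adjusted p 0.0038), from 606 ± 111 to 1186 ± 154. EFL1, a GTPase of ribosome maturation, rose by 0.88 (adjusted p 0.0053). MCUR1, a regulator of mitochondrial calcium uptake, and ABLIM1, an actin-binding LIM protein, had small rises with small spread. MCUR1 rose by 0.62 (adjusted p 0.0024) and ABLIM1 by 0.55 (adjusted p 0.0025), from 5067 ± 141 to 7421 ± 430.

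The rest of the rises had adjusted p values near the threshold. GADD45B, a relative of GADD45A, rose by 0.83 (adjusted p 0.033; 0.052 to 0.225 without any 1 vehicle array, 8 h replicate 1 or 2 or 24 h replicate 1), and all 4 of its probe sets lay above 0. RAB11FIP1, an effector of endosome recycling, rose by 0.76 (adjusted p 0.038; 0.0504 to 0.208 without any 1 vehicle array, 8 h replicate 1 or 3 or 72 h replicate 3). NIBAN1, a stress-responsive cytosolic protein, rose by 0.75 (adjusted p 0.048; 0.053 to 0.240 without any 1 of the 6 arrays compared, 24 h replicate 1 or 72 h replicate 1 or 3). Arrays of the later times can change these calls because they share the estimate of the spread. PDZD8, a lipid transfer protein of the endoplasmic reticulum, rose by 0.65 (adjusted p 0.042; 0.052 to 0.226 without any 1 of the 6 arrays compared, 24 h replicate 1 or 3 or 72 h replicate 2). NXT1, a cofactor of RNA export, rose by 0.51 (adjusted p 0.022; 0.082 to 0.142 without any 1 array at 8 h or vehicle replicate 1 or 2). GADD45A and GADD45B were the 2 of 17 tested members of the growth arrest and p53 list that rose. RGCC was the 1 that fell, and 14 did not pass. Among all genes tested, 0.711% rose and 0.0557% fell. The median of that list was 0.09, and PLK2 and FAS changed by 0.26 (adjusted p 0.32) and -0.56.

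4 genes fell. RGCC, a cell cycle regulator also called RGC-32, had signals of 1438, 1179 and 1446 in vehicle and 304, 242 and 303 at 8 h. The groups were far apart, and replicate 2 was the lowest array of each. RGCC fell by 2.20 on the log2 scale (interval -2.62 to -1.77, adjusted p 1.4e-05), to 0.218 of the vehicle level on the scale used. IRF8, an interferon regulatory factor of haematopoietic cells, had signals of 380, 295 and 431 in vehicle and 183, 132.9 and 186 at 8 h, without overlap. IRF8 fell by 1.07 on the log2 scale (interval -1.48 to -0.65, adjusted p 0.011; 0.077 without vehicle replicate 1, 0.089 without vehicle replicate 3 and 0.073 without 8 h replicate 2). IRF8 is best known from leukocytes; the leukocyte markers PTPRC, CD14 and LYZ had mean signals of 44.9, 26.2 and 6.62 in vehicle and 34.7, 20.9 and 8.60 at 8 h, CD3D of 113 and 169, and CD3E of 147 and 144. All 5 were under the filter over the 12 arrays, CD3D and CD3E close to it, and their part in the IRF8 result was not tested. ADAMTS1, a secreted metalloprotease, had signals of 518, 473 and 448 in vehicle and 219, 297 and 266 at 8 h, also without overlap. ADAMTS1 fell by 0.85 on the log2 scale (interval -1.23 to -0.46, adjusted p 0.039; 0.052 to 0.231 without any 1 of the 6 arrays compared or 72 h replicate 1). LMCD1, a LIM protein known to repress GATA6 activity, had signals of 1832, 1862 and 1642 in vehicle and 1058, 1107 and 1022 at 8 h. LMCD1 fell by 0.73 on the log2 scale (interval -0.99 to -0.47, adjusted p 0.0056), and together with RGCC kept the call whichever array was left out.

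The genes nearest the threshold on its far side were of similar size to those just inside. PRKAG2, a regulatory subunit of AMP-activated kinase, changed by 0.65 (adjusted p 0.051), P2RY2, a nucleotide receptor, by 0.58 (adjusted p 0.051) and TACC2, a centrosomal protein, by 0.52 (adjusted p 0.061). In the other direction, NAV2 changed by -0.57 (adjusted p 0.051), the lineage factor SOX9 by -0.69 (adjusted p 0.051) and TRIM16 by -0.58 (adjusted p 0.077). In each of these 6 genes the groups did not overlap. Over all genes tested, the same held for 6.51% in the upward and 6.95% in the downward direction. The 6 were picked by p on the same values, so the separation is no added support. SOX9, for example, had signals of 311, 304 and 382 in vehicle and 189, 201 and 207 at 8 h.

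The lists of NF-kappaB and cytokines, the interferon response, G1 and mitosis held no gene past the test at 8 h; IL12A, IRF8 and RGCC, described above, are not members of these lists. None of the 21 tested genes of NF-kappaB and its cytokines passed (11 had an unadjusted p under 0.05), and 16 of 21 changes were below 0, with a median of -0.26. CXCL2, a neutrophil chemokine, had signals of 1608, 1441 and 1785 in vehicle and 843, 902 and 1196 at 8 h. The groups were separate, and the change of -0.72 had an interval of -1.08 to -0.35 (adjusted p 0.079). CXCL2 passed as lower in a fit on the 6 arrays alone (adjusted p 0.027), with array weights (0.034) and without 8 h replicate 3 (0.039), 72 h replicate 1 (0.035) or 72 h replicate 3 (0.026). CXCL3, a related chemokine, changed by -0.71 (adjusted p 0.28; 0.046 on the 6 arrays alone). NFKBIA, the inhibitor of NF-kappaB, and CSF1, a macrophage growth factor, changed the other way, by 0.34 (adjusted p 0.15) and 0.52 (adjusted p 0.14). In a fit with the replicate number as a block, NFKBIA passed as higher (adjusted p 0.039). None of the 20 tested interferon response genes passed (2 at an unadjusted p under 0.05). Of the 20 changes, 16 were below 0, with a median of -0.16. GBP1, an interferon-induced GTPase, changed by -0.76 (adjusted p 0.17) and passed as lower in the fit with the replicate block (adjusted p 0.025). None of the 19 G1 regulators passed (1 at an unadjusted p under 0.05; median -0.08). That gene was CDKN1C, a cyclin-dependent kinase inhibitor, with a change of -0.32 (adjusted p 0.68), and CCND1, cyclin D1, changed by -0.53 (adjusted p 0.83). None of the 38 mitosis genes passed (3 at an unadjusted p under 0.05; median -0.08), although 30 of 38 changes were below 0; CCNA2, cyclin A2, changed by -0.34 (adjusted p 0.28) and DLGAP5, a spindle protein, by -0.37 (adjusted p 0.14). CDC25B, a phosphatase that activates mitotic kinases, changed by -0.39 (adjusted p 0.27; 0.046 on the 6 arrays alone). G0S2 was the 1 of 19 tested genes of lipid droplets and fatty acids past the test, and the median was -0.07; the oxidation enzyme ACADM changed by 0.40 (adjusted p 0.35). Over all genes tested, 48.8% of changes were above 0, and 458 of 7178 genes had an unadjusted p under 0.05.

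**Figure D3:**
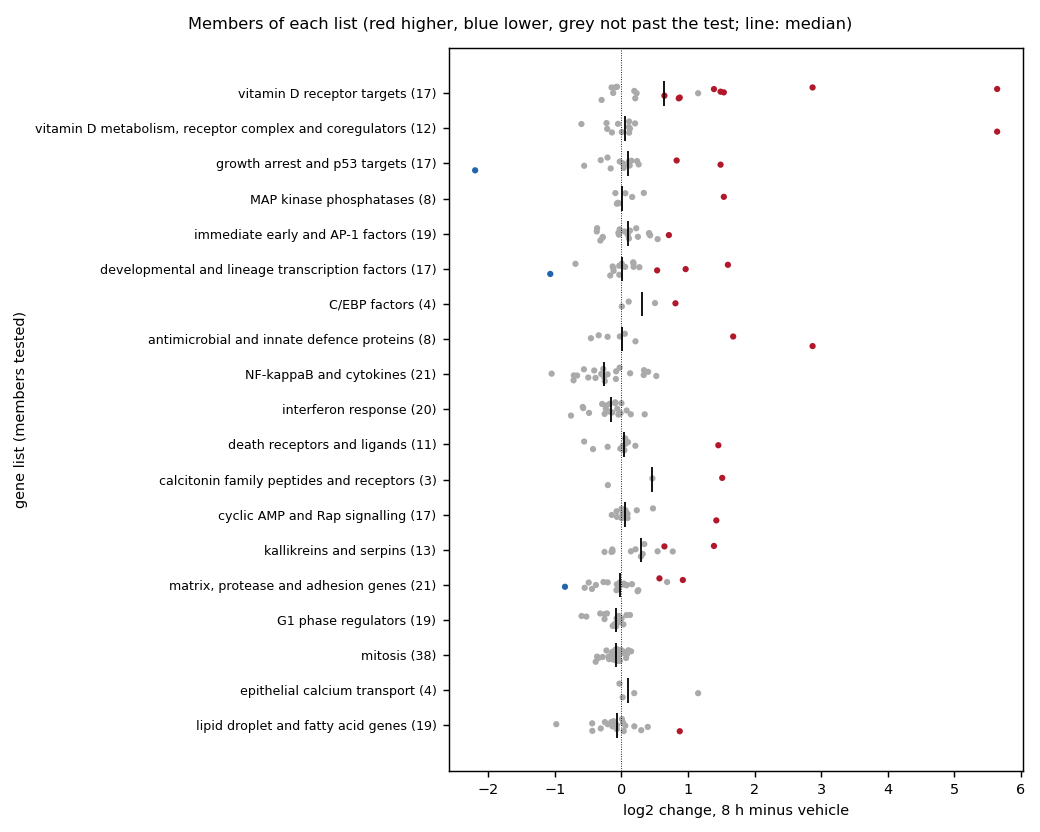
Log2 change at 8 h against vehicle (x axis) of each tested member (points) of 19 gene lists (y axis, number tested in brackets); red points rose, blue points fell, grey points did not pass, and the black line is the list's median. The vitamin D receptor target list has a median of 0.65 with 8 red points; the NF-kappaB and interferon lists have medians of -0.26 and -0.16 and no coloured point.

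8 of the 51 genes that rose had a mean vehicle signal under the filter of 168.9 and were tested because their later or 8 h signals lifted the mean over the 12 arrays: ADGRE5, CALCB, CAMP, CYP24A1, GATA6, PALMD, SECTM1 and TNFSF10. A gene of such low vehicle signal could enter the test only by being high elsewhere, and the balance of rises over falls is not read from these 8. Counts of list members that rose share this limit where they include these genes. Leaving out each of the 12 U133A arrays in turn, 28 of the genes that rose and 2 that fell passed in every fit, and 25 of the 55 lost the call in at least 1. Without 8 h replicate 1, 34 genes were higher, the fewest of any such fit, and without 8 h replicate 2, 2 genes were lower.

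A second set of measurements came from the probe sets not used to represent a gene. The 51 genes that rose had 28 further probe sets, on 21 genes, and all 28 were above 0 at 8 h, from 0.23 to 1.49 with a median of 0.74. Among the other probe sets of all tested genes, 47.5% were above 0. These probe sets were read on the same arrays from the same RNA. The 4 genes that fell had no further probe set.

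The U95 arrays gave 1 vehicle and 1 8 h sample, and thus values without a test. Of the 51 genes that rose on U133A, 41 were on the U95 type and 39 of them had a ratio above 1. Among the 36 above the U95 filter, 34 had a ratio above 1 (94.4%), with a median log2 ratio of 0.68, while 47.9% of the 4167 genes above both filters had a ratio above 1. Some of these genes passed a filter only through treated arrays. In a selection added after seeing the data, of the 28 whose vehicle arrays alone lay above the filters of both array types, 26 had a ratio above 1 (92.9%), with a median of 0.62, against 46.1% of the 4168 tested genes chosen in that way. CYP24A1 had a U95 signal of 15.3 in vehicle and 1395 at 8 h, a log2 ratio of 5.60 close to its U133A change. CAMP went from 186 to 564 (1.53), GADD45A from 383 to 793 (1.02), TNFSF10 from 224 to 696 (1.58) and WT1 from 1633 to 2587 (0.66). The exceptions were PEA15 (-0.11) and WSB1 (-0.21), both among the smaller rises on U133A. Some ratios above 1 were close to it, with log2 values of 0.03 for ZMIZ1, 0.11 for ABL1 and 0.16 for CEBPB. DLX2, whose U133A call depended on single arrays, went from 298 to 806 on U95 (1.40). IRF8 was the only 1 of the 4 genes that fell with a U95 probe set, and there it was higher at 8 h, 208 against 133.4, under the filter of that array type. The 2 array types thus gave opposite signs for IRF8, and RGCC, ADAMTS1 and LMCD1 had no U95 value to compare.

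**Figure D4:**
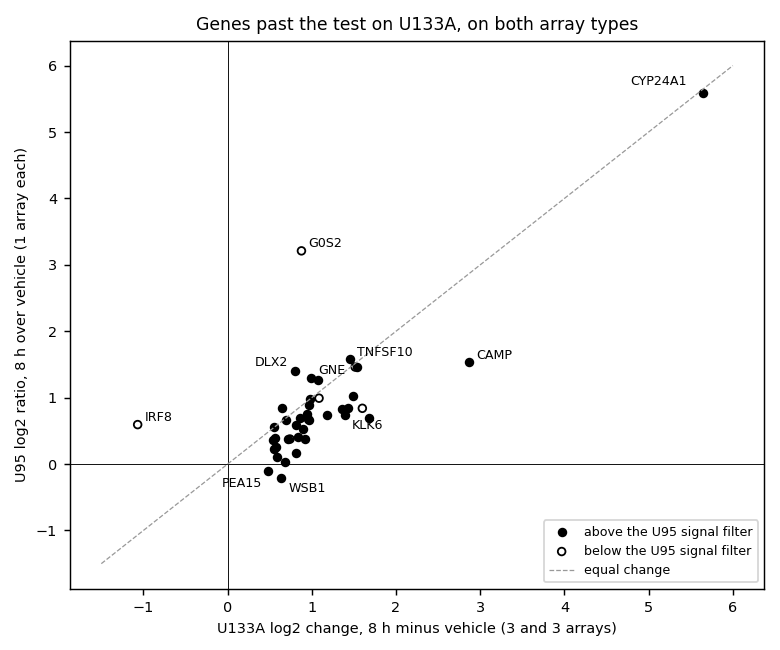
U95 log2 ratio of the single 8 h array to the single vehicle array (y axis) against the U133A log2 change, 8 h minus vehicle, from 3 and 3 arrays (x axis), for the genes past the test on U133A that are also on U95; filled points lie above the U95 signal filter and the dashed line marks equal change. CYP24A1 lies near that line (5.65 and 5.60), PEA15 and WSB1 lie just below 0 on the y axis, and IRF8 has opposite signs.

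The later arrays show how the 8 h changes continued. The changes at 8, 24 and 72 h are all measured against the same 3 vehicle arrays, so they are not independent and are given side by side only. The median change of the 51 genes was 0.88 at 8 h, 0.98 at 24 h and 1.05 at 72 h, and the 4 genes that fell were below 0 at all 3 times. CYP24A1 was near its later level at 8 h already, with changes of 5.65, 5.86 and 5.89. WT1 (0.97, 1.00 and 1.05), HPCAL1 (1.18, 1.08 and 1.01) and TNFSF10 (1.46, 1.42 and 1.21) also differed little between the times. Other genes had larger values at the later times. CAMP showed changes of 2.87, 4.28 and 4.63, KLK6 of 1.39, 2.49 and 2.85, CHRDL1 of 0.56, 1.57 and 1.94, and ABLIM1 of 0.55, 1.37 and 1.63. COL4A1 showed changes of 0.92, 1.70 and 1.67 and COL4A2 of 0.57, 1.21 and 1.51. Of the 55 genes, 11 were farther from vehicle at 8 h than at either later time, HPCAL1 and TNFSF10 among them. IL12A showed changes of 0.74, 0.41 and 0.13, NXT1 of 0.51, 0.28 and 0.29 and, among genes just outside the threshold, P2RY2 of 0.58, 0.23 and -0.05 and SOX9 of -0.69, -0.32 and -0.22. RGCC was at -2.20, -2.92 and -2.33. No difference between the times was tested here.

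**Figure D5:**
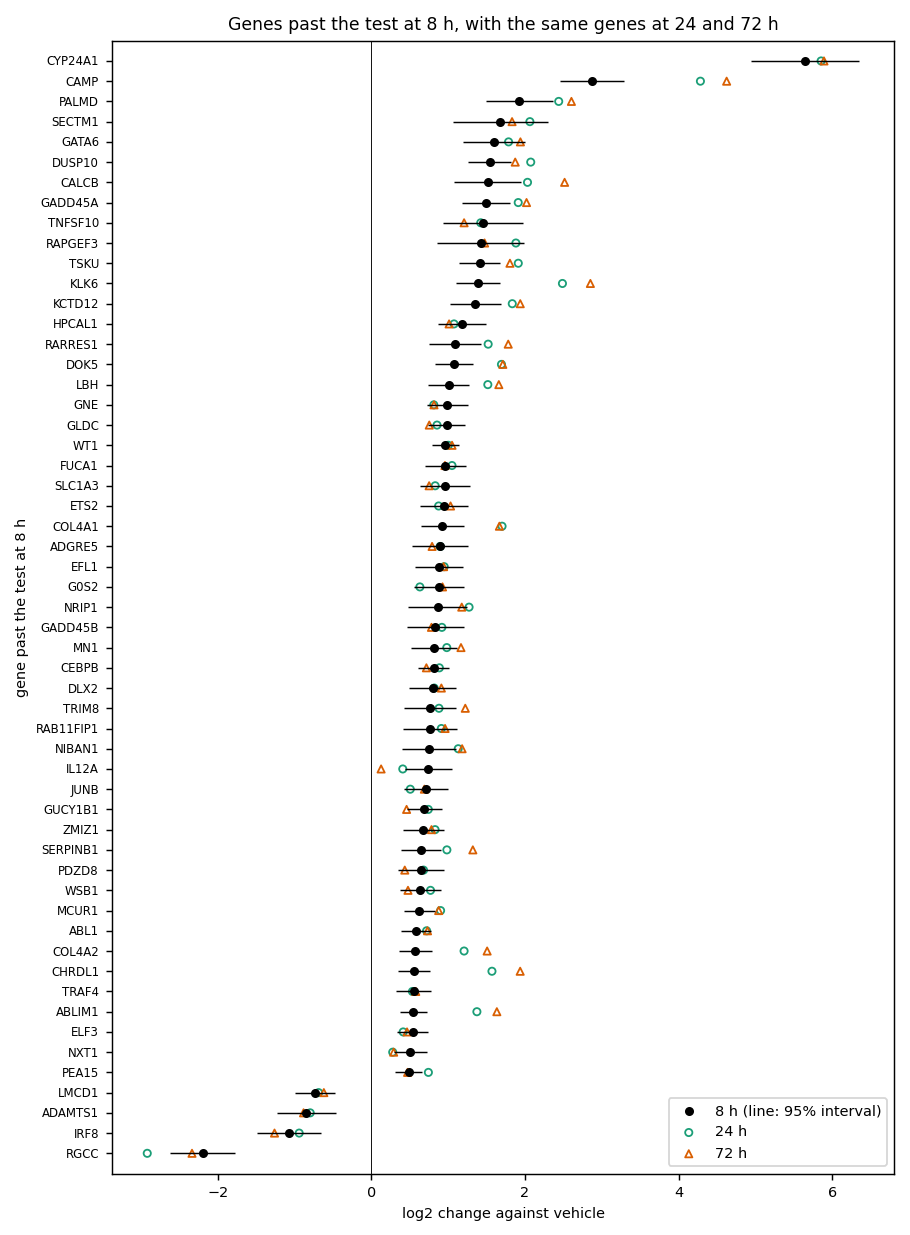
Log2 change against vehicle (x axis) of the 55 genes past the test at 8 h (y axis): black points with 95% intervals at 8 h, open green circles at 24 h and open orange triangles at 72 h, each from 3 arrays against the same 3 vehicle arrays. CYP24A1 is near 5.65 to 5.89 at all times, CAMP moves from 2.87 to 4.63, and IL12A from 0.74 to 0.13.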

How the data were processed

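Messenger RNA of OVCAR3 cells was measured on 12 U133A and 4 U95 arrays. The authors deposited 1 intensity for each probe set, a MAS5 signal per the submitters' processing notes, with no version given; the 2% trimmed mean was 500.2 on every U133A array, and no further scaling was done. Probe sets were named from the platform annotation (19071 of 22283 had exactly 1 gene). In R 4.3.3, each value was taken as log2(signal + 15.833), where the offset is the U133A values' 10th percentile. The probe set with the highest mean log2 value stood for its gene, and genes above the 40th percentile of that mean over 12 arrays were tested (7178 of 11963). In limma 3.58.1, all 12 arrays entered 1 linear model of the 4 groups (trended eBayes, 8 residual degrees of freedom), with Benjamini-Hochberg adjustment over all genes tested and a threshold of 0.05; it was tested on simulated data. P-values measure the spread between these 3 samples a group, from 3 separate experiments of 1 cell line, and the number of arrays limits the precision. U95 log2 ratios used an offset of 13.87.

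Every gene past the threshold with separate groups is named, with up to 4 members of lowest p for each list, the 3 nearest genes outside the threshold in each direction, and VDR, RXRA, CYP24A1, GADD45A and CAMP. A few further list members (IGFBP3, CDKN1B, TXNIP, CA2, TNFRSF10B), the probe sets of WT1, COL4A1, COL4A2 and RARRES1, and PFDN4 were named after their values were seen. The comparison, lists and rules were chosen with earlier results of these data known. Alternatives were the offset, filter, normalization, probe set rule, arrays in the fit, a replicate block, array weights and leaving out each array. Detection calls were not used here. Promoters are RefSeq sequences on GRCh38.p14, searched in Python 3.11.15. Gene positions of that assembly were used besides only to find neighbouring genes, since the array files name no build.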

Additional observations from a re-analysis of the deposited data

How the results depend on the processing

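None of the 55 genes past the test changed direction under any alternative run. In all 55 the groups were separate, so leaving out an array or changing the offset could not reverse them. Their constant direction is therefore no added support. Of the named genes that did not pass, 14 changed direction. With averaged probe sets RXRA was -0.22, ATP2B1 -0.16, DUSP3 -0.094, CREBBP 0.24 and RAPGEF2 0.090, with array weights DDIT3 was -0.011, and with probe sets chosen on linear signals THY1 was 0.10. Leaving out 1 array gave ranges of -0.014 to 0.38 for COL1A1, -0.12 to 0.26 for CEBPG, -0.0095 to 0.22 for MUC16, -0.054 to 0.10 for ATP2B1, -0.074 to 0.070 for CLDN4, -0.10 to 0.15 for DDIT3, -0.14 to 0.066 for ATP2B2, -0.13 to 0.019 for THY1, -0.18 to 0.00046 for DUSP14 and -0.11 to 0.18 for TNFRSF10B. The count of 51 higher genes stayed between 43 and 70 under the alternatives other than leaving out an array. It was 43 with no filter on low signal (42 of them among the 51) or with the 60th percentile as filter, 62 with the 6 vehicle and 8 h arrays alone, and 70 with array weights. The count of 4 lower genes was 2 with the 60th percentile filter, 7 with all probe sets of a gene averaged, 16 with the 6 arrays alone and 12 with array weights; all but the first of these included the same 4. Leaving out 1 array gave 34 to 54 higher and 2 to 6 lower genes, the 2 without 8 h replicate 2. The rule that takes the probe set and filter from the mean of linear signals, chosen after seeing the data, gave 54 and 6. The cause of these differences was not tested. Vehicle and 8 h arrays share replicate numbers, but no label says that a number marks a shared experiment. Deviations from the group means correlated at 0.159, 0.098 and 0.068 for same-number arrays and at -0.164 to 0.064 for the others, so each array correlated best with its own number. A fit with the replicate number as a block gave 69 higher and 15 lower genes, including all 55; it moved 8 named genes past the threshold, P2RY2 (adjusted p 0.014), LAMB3 (0.016), GBP1 (0.025), PRKAG2 (0.034), NFKBIA (0.039), NAV2 (0.042), SOX9 (0.0484) and TACC2 (0.0496), so the interferon and NF-kappaB lists then held 1 call each. With no filter, 10 named genes lost the call, among them RAPGEF3 (0.052) and IL12A (0.053); with averaged probe sets, 7 did, among them DLX2 (0.282). Genes under the signal filter, about 40% of those on the array type, were not tested, so low signal limits what could be detected.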
